A study of Mus musculus with 6 samples.

Results

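Cell-surface receptors let islet cells sense nutrients, calcium, vasopressin and catecholamines, and 10 genes for them were followed in islets of mice in which Klf4 was deleted in alpha cells. These genes, Ffar1, Ffar2, Ffar3, Ffar4, Gpr119, Gpr142, Avpr1b, Adra2a, Adrb1 and Casr, were taken by symbol from a count table of 55536 genes, and each symbol matched 1 row. Polyadenylated RNA came from whole pancreatic islets, the hormone-secreting cell clusters of the pancreas, of C57B1/6J mice, as the strain is spelled in the labels. Control mice had the genotype Klf4+/+;Gcg-iCre and knockout mice the genotype Klf4fl/fl;Gcg-iCre, with 3 libraries each. All mice therefore carried Gcg-iCre, in which the glucagon gene drives Cre recombinase, so that Klf4, a zinc-finger transcription factor, is deleted in the alpha cells while the beta, delta and non-endocrine cells keep it. The labels give neither age nor sex and do not say whether a library is 1 animal or a pool, so p-values measure the spread between these libraries.

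All 10 products are G protein-coupled receptors. Those coupled to Gq (FFAR1, AVPR1B, CASR and largely GPR142) act through phospholipase C and calcium release, those coupled to Gs (GPR119, ADRB1) raise cyclic AMP, and those coupled to Gi (ADRA2A, FFAR3) lower it. In islets such receptors tune hormone release around the primary signal of glucose: fatty acids and tryptophan enhance insulin secretion, and catecholamines suppress insulin and promote glucagon secretion. Vasopressin acts on alpha cells through AVPR1B, and FFAR4 is known from delta cells.

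Each library held 101277200 to 110243918 counts, and hormone genes of alpha, beta and delta cells were abundant in all 6. Klf4 itself ranged from 2015 to 3148 normalized counts over the controls and from 2277 to 2540 over the knockouts (log2 fold change -0.17, adjusted p = 0.774, DESeq2). Without control replicate 3, the lowest of the controls, it was -0.34 with an adjusted p of 0.00568, the 1 of 13 alternatives in which it passed. This gene-level count from whole islets, where other cells keep Klf4, is thus no clear check of the deletion. Xist was at 77938 or more normalized counts in each control and at 30.2 or fewer in each knockout library, and Ddx3y, Uty, Eif2s3y and Kdm5d had counts in every knockout library and 0 in every control. Sex, read from these transcripts, and genotype cannot be told apart in any comparison here. Summed alpha-cell markers ran from 4124806 to 5935545 normalized counts in controls and from 3059373 to 3758011 in knockouts, with 4 of 8 lower in DESeq2 (Gcg, Irx2, Ttr, Slc38a5); the edgeR test called 0 of these 4. All 4 lost the call without knockout replicate 1 or 3, as did Irx2, Ttr and Slc38a5 without control replicate 2, Irx2 without control replicate 1 or without independent filtering (0.0528), and Ttr without control replicate 3, with adjusted p up to 0.144 for Gcg, 0.410 for Irx2, 0.272 for Ttr and 0.150 for Slc38a5. Summed acinar markers, of the digestive enzyme cells, ran from 404408 to 814325 and from 1018438 to 1458399 (0 of 6 past the threshold), and summed fibroblast, stellate and pericyte markers from 83838 to 96859 and from 125620 to 131116 (5 of 9 higher: Col1a1, Col1a2, Col3a1, Dcn, Pdgfra). In edgeR, Col3a1 (adjusted p = 0.0511) and Dcn (0.160) lost the call. Of the pericyte and smooth-muscle genes of that list, Acta2 (log2 fold change -0.29) and Rgs5 (-0.07) were below 0 and Pdgfrb (0.13) was above 0. These genes did not pass. The macrophage marker Cd68 (log2 fold change 0.53, DESeq2 adjusted p = 0.0416) and the duct marker Krt7 (0.28, 0.0444) were higher too, each the 1 called gene of its list (10 immune and 5 duct markers). Of the 7 tested immune markers 5 lay above 0, and of the 5 tested duct markers 3 did, the called gene included in each. The 2 of each list below 0 did not pass. They were Cd79a (-0.23) and Ptprc (-0.02) of the immune and Cftr (-0.51) and Sox9 (-0.11) of the duct markers. Both calls were lost in edgeR (adjusted p = 0.314 and 0.315), without independent filtering (0.0576 and 0.0612), for Cd68 with the replicate block (0.154), and without control replicate 1 or 2 or knockout replicate 1 or 3, where the adjusted p ran up to 0.456 and 0.372. In bulk tissue, fewer cells of a type and less RNA per cell cannot be told apart.

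Of the 10 receptors, 1 differed between the genotypes in DESeq2: Gpr119 fell in the knockout islets, a call that the edgeR quasi-likelihood test did not make (adjusted p = 0.186). DESeq2, with p-values adjusted over all 17797 genes given one and a threshold of 0.05, called 2.19% of those genes in either direction, 0.657% lower and 1.53% higher. The other 9 receptors did not pass. The median log2 fold change (knockout against control) was -0.13 over the 10 receptors, with 8 below 0, and -0.0061 over all genes tested. For Gpr119 and Casr every knockout library lay below every control library, and the groups overlapped for the other 8 receptors; 17.3% of all genes tested had groups without overlap, so 2 of 10 is near that background.

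The promoters of these 2 receptors are shown because their groups did not overlap and the deleted factor binds C-rich elements. The sequences are the 250 bases before the RefSeq start site (GRCm38.p6), 5′ to 3′ on the gene's strand. Capitals mark matches, on either strand, to CACCC, the core of many elements bound by Kruppel-like factors, or to the looser CCNCNCCC; overlapping matches run together.
Gpr119 (chrX:48674479-48674728, minus strand): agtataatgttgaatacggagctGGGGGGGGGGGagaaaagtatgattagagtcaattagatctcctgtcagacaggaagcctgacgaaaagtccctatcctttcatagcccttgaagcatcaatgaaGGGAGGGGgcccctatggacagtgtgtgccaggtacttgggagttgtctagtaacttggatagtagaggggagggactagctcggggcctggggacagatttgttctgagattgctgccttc
Casr (chr16:36562135-36562384, minus strand): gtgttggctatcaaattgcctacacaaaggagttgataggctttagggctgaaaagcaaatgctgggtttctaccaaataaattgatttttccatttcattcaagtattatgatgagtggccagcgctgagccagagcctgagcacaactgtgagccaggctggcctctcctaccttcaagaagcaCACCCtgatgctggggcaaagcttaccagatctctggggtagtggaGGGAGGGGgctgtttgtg

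The Gpr119 window had 0 matches to CACCC and 5 to CCNCNCCC, 4 of them overlapping within a run of G and the fifth starting 122 bases before the start site. The Casr window had 1 match to each, starting 64 and 18 bases before it. Both motifs are common: in windows of 300 bases (250 before to 50 after the start), 57.5% of 32851 RefSeq promoters held CACCC and 49.5% held CCNCNCCC. The promoter table listed 9 of the 10 receptors, all but Avpr1b, with 13 windows, since Ffar2 has 4 start sites and Gpr142 has 2. CACCC was in at least 1 window of 8 of these 9 receptors and CCNCNCCC of 6. Counted per window, as the 57.5% and 49.5% are, CACCC was in 12 of the 13 and CCNCNCCC in 7. Some Ffar2 windows overlap and share matches. CACTT, the core of sites bound by NKX2-2 (the partner factor in the series' title), was in a window of 2, Ffar4 and Gpr142. That is 2 of the 13 windows, beside 46.4% of all promoters.

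Receptor levels spanned a wide range when set per gene length, as TPM (counts per exon base, scaled to 1000000 per library). Ffar1 was the most abundant, at 106 ± 9.68 TPM in control and 119 ± 17.3 in knockout libraries (SD, n = 3 for each group), and ranked 659th of all genes in controls. Adra2a followed at 84.0 ± 8.33 and 82.8 ± 6.43 TPM, then Casr at 72.2 ± 9.11 and 61.4 ± 6.68, and Gpr142 at 39.7 ± 3.17 and 38.8 ± 0.925. In controls, Ffar1 lay above Adra2a and Gpr142 lay below Casr in every library, whereas the ranges of Adra2a and Casr overlapped.

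A middle group of 4 lay close together in controls. Gpr119 was at 26.1 ± 7.02 TPM, Ffar2 at 22.5 ± 4.39, Ffar4 at 20.5 ± 5.68 and Ffar3 at 19.6 ± 1.48, and neighbours in this order overlapped. In knockouts Gpr119 was at 14.8 ± 1.23 TPM and moved from the fifth to the eighth place, below Ffar2 (20.9 ± 1.57), Ffar3 (20.8 ± 3.86) and Ffar4 (18.6 ± 1.27). Avpr1b (4.91 ± 1.36 and 3.50 ± 0.126 TPM) and Adrb1 (0.916 ± 0.0756 and 0.812 ± 0.300) were the 2 lowest in each genotype.

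**Figure D1:**
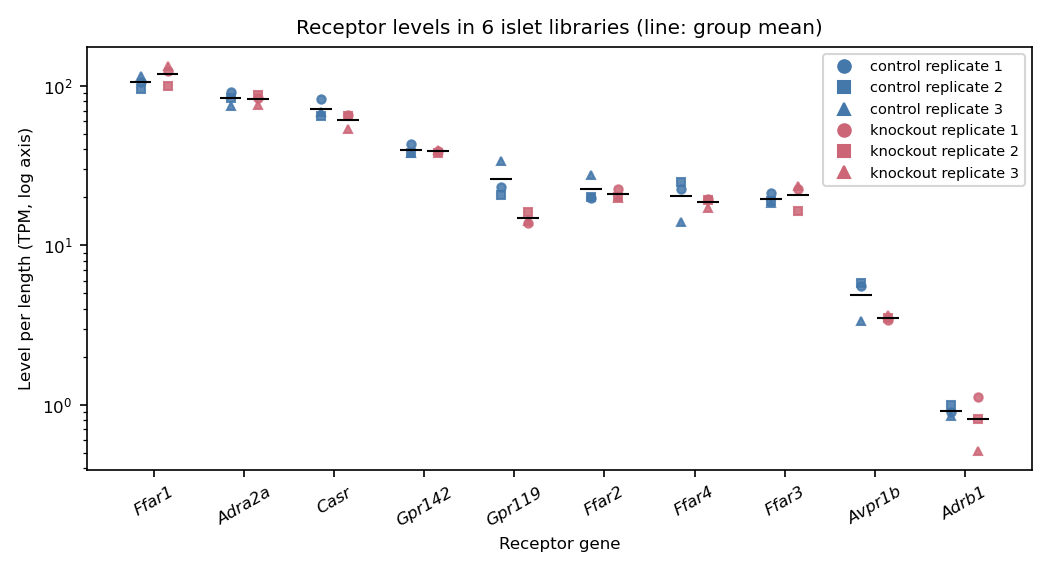
Level per length of each receptor (TPM, log axis) in each of the 6 libraries, with control libraries in blue, knockout libraries in red and the group mean as a black line. The genes are ordered by their control mean, from Ffar1 at 106 TPM to Adrb1 at 0.916 TPM, and only the Gpr119 and Casr groups are set apart on normalized counts.

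Long-chain fatty acids are sensed by FFAR1, mainly in beta cells, and by FFAR4. Ffar1 (chromosome 7, 30857390 to 30861564, minus strand, 1 exon) had 18054, 18009 and 21359 normalized counts in the control libraries (replicates 1 to 3, as in all series of values here) and 22249, 18506 and 23583 in the knockout libraries. The 2 highest values were in knockout libraries, but knockout replicate 2 lay below control replicate 3. The log2 fold change was 0.16 ± 0.11 (SE, DESeq2 adjusted p = 0.624), with a 95% interval from -3.14% to 29.6%.

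Ffar4 (chromosome 19, 38097071 to 38114263, plus strand) was at 1297, 1568 and 876 normalized counts in controls and at 1181, 1194 and 1021 in knockouts. All 3 knockout values lay inside the control range, and the log2 fold change was -0.14 ± 0.18 (adjusted p = 0.885). Summed delta-cell markers, mostly Sst counts, ran from 353049 to 464994 normalized counts in controls and from 277128 to 442543 in knockouts. Of these 5 markers 0 passed, and control replicate 3 was the lowest control for the sum and for Ffar4. The part of delta-cell RNA in the Ffar4 values was not tested.

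Short-chain fatty acids, the products of gut fermentation such as acetate and propionate, are sensed by FFAR2 and FFAR3. Ffar2 (chromosome 7, 30818348 to 30823775) and Ffar3 (30854330 to 30856178) lie on the minus strand beside Ffar1; 1.21 kb separate Ffar3 from Ffar1 and 30.6 kb separate Ffar2 from Ffar3. Ffar2 was at 2275, 2517 and 3414 normalized counts in controls and at 2733, 2499 and 2354 in knockouts, so that control replicate 3 stood above the other 5 libraries. Its log2 fold change was -0.11 ± 0.14 (adjusted p = 0.879). Ffar3 was at 1613, 1574 and 1519 in controls and at 1788, 1347 and 1845 in knockouts. The controls lay within the knockout range, and its log2 fold change was 0.08 ± 0.13 (adjusted p = 0.917). Close neighbours on the chromosome thus had fitted changes of either sign, none past the threshold. Markers of neutrophils, which also carry FFAR2, were nearly absent: S100a8 and S100a9 had at most 20.0 normalized counts in a library. Of the 6 adipocyte markers, from cells that carry FFAR2 and FFAR4, Cfd and Lep had 0 counts in every library, Adipoq and Plin1 were under the minimum of 10 counts in total, and Plin4 was at 24.6 ± 7.03 and 38.9 ± 6.11 normalized counts. Fabp4, which capillary endothelium and macrophages also express, was at 1490, 1807 and 1886 normalized counts in controls and at 2422, 2617 and 2114 in knockouts, without overlap. It rose (log2 fold change 0.46 ± 0.12, DESeq2 adjusted p = 0.0118), but lost the call in edgeR (0.231) and without control replicate 1 (0.0756), knockout replicate 1 (0.180) or knockout replicate 2 (0.141). The summed list, nearly all of it Fabp4 counts, ran from 1510 to 1907 in controls and from 2145 to 2659 in knockouts. The part of adipocyte RNA in the Ffar2 and Ffar4 values was not tested.

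Within the free fatty acid receptors, Ffar1 took most of the summed TPM of the 4 genes. Its share averaged 62.7% ± 2.86 over the controls and 66.2% ± 2.33 over the knockouts (SD, n = 3 per group), from 60.0% to 68.7% over the 6 libraries. An exact two-sided permutation test over libraries gave p = 0.3 (0.45 after Benjamini-Hochberg adjustment over the 3 shares tested), where 3 against 3 cannot give less than 0.1.

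GPR119, the receptor for oleoylethanolamide and related lipid amides, raises cyclic AMP and is best known from beta cells and gut endocrine cells. Gpr119 (ENSMUSG00000051209, chromosome X, 48667979 to 48674478, minus strand, 2 exons) had 2176, 2126 and 3431 normalized counts in the controls and 1354, 1633 and 1374 in the knockouts. Every knockout library lay below every control library, and control replicate 3 stood well above the other controls. Control libraries averaged 2578 ± 739 and knockout libraries 1454 ± 155 (SD, n = 3 per group), and the log2 fold change was -0.83 ± 0.17 (SE, DESeq2 adjusted p = 0.000334). That is a change of -43.6%, with a 95% interval from -55.3% to -28.8%. Without control replicate 3 the log2 fold change was -0.57, and over the 6 fits that each left out 1 library the adjusted p stayed between 4.56e-05 and 0.0298. The edgeR quasi-likelihood test gave the same change, -0.82, but an unadjusted p of 0.00112 and an adjusted p of 0.186, so Gpr119 did not pass there; that test called 29 genes (0.115% of 25210) and 0 of the 10 receptors. There, 3 receptors (Gpr119, Avpr1b, Casr) and 9.48% of all genes had an unadjusted p under 0.05.

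Of the 10 beta-cell markers, 6 had log2 fold changes below 0 and 1 passed: Nkx6-1, a beta-cell transcription factor gene, fell from 58719 ± 2189 to 50186 ± 1792 normalized counts (SD, n = 3 per group; log2 fold change -0.23 ± 0.07, DESeq2 adjusted p = 0.0314). It did not pass in edgeR (adjusted p = 0.361), with the replicate block (0.0573), or without control replicate 1 (0.0885), control replicate 2 (0.110), knockout replicate 1 (0.348) or knockout replicate 3 (0.101). For Mafa, an insulin gene activator, and Slc2a2, the glucose transporter gene, the knockout libraries also lay below the controls, but neither passed (log2 fold changes -0.31 and -0.24, adjusted p = 0.107 and 0.238). The insulin genes Ins1 (0.08) and Ins2 (0.02) did not pass either. The median of the list was -0.09, and its sum, mostly of insulin and Iapp counts, overlapped between the groups at 18758074 to 21862579 normalized counts in controls and 20965629 to 21294242 in knockouts. The part of beta-cell RNA in the Gpr119 difference was not tested.

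Gpr119 is the only X-linked receptor of the 10, and in these libraries Xist, the RNA of the inactive X chromosome, moved with genotype. Of 578 X-linked genes tested, 2.94% were called lower and 1.04% higher in knockouts, while 0.57% of autosomal genes were called lower. The median log2 fold change of X-linked genes was -0.03. The part of sex in the Gpr119 difference cannot be told apart from that of genotype.

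As a share of the summed TPM of the 10 receptors, Gpr119 held 5.61%, 5.56% and 8.61% in controls and 3.50%, 4.41% and 3.75% in knockouts. The groups did not overlap, and the exact two-sided permutation p of 0.1 (0.3 adjusted over the 3 shares) is the smallest raw p that 3 against 3 allows.

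The gene profiles closest to that of Gpr119 were sought among 15810 genes with a mean of at least 50 normalized counts, as the smallest root mean square difference of centred log2 values over the 6 libraries. The closest was Gm47015 (a long non-coding RNA gene on chromosome 10; difference 0.085), then Rbmx2 (chromosome X, 48695004 to 48710723, plus strand; 0.14) and Cemip2 (chromosome 19; 0.15). Rbmx2 is a neighbour of Gpr119, with 20.5 kb between them. It was at 1003, 953 and 1761 normalized counts in controls and at 715, 891 and 821 in knockouts, again highest in control replicate 3. Its log2 fold change of -0.61 ± 0.21 did not pass (DESeq2 adjusted p = 0.0976), and neither did those of Gm47015 (-0.81) and Cemip2 (-0.69; without control replicate 2 it was -0.86 and passed, adjusted p = 0.00746).

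**Figure D2:**
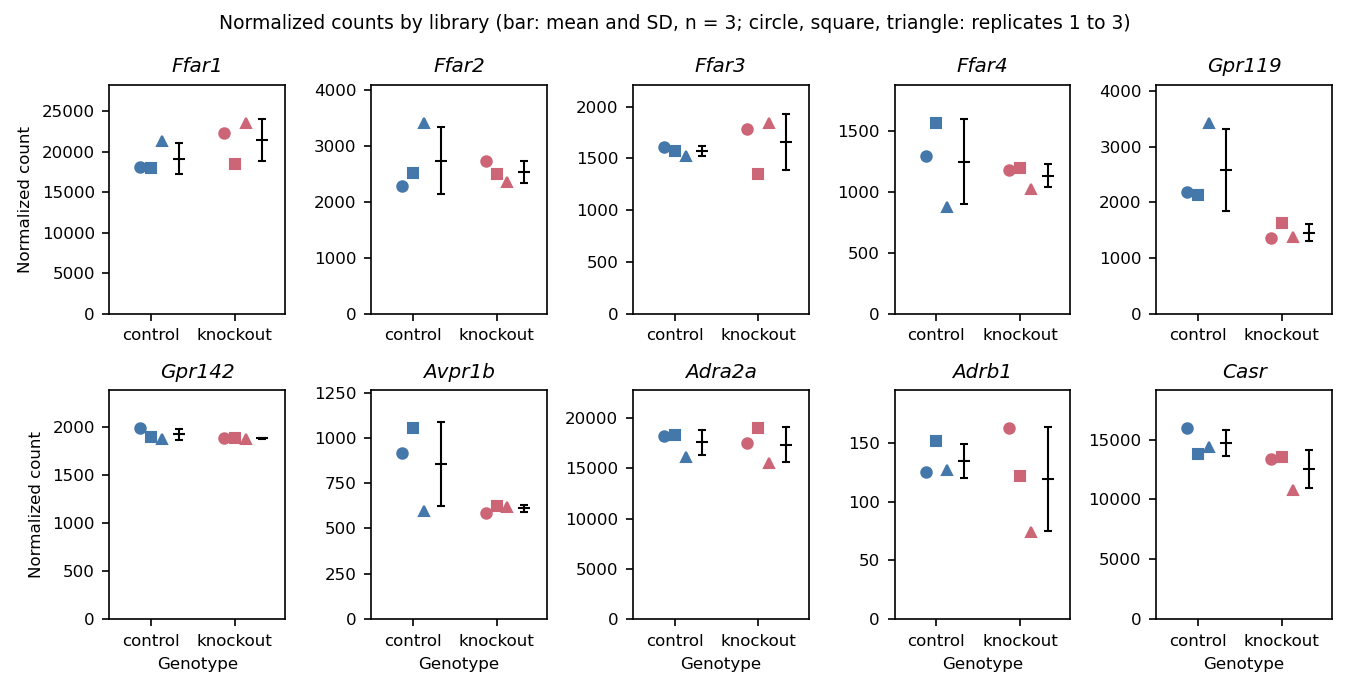
Normalized counts of each receptor by genotype, on linear axes from 0, with replicates 1, 2 and 3 as circle, square and triangle and the mean ± SD (n = 3) beside them. Gpr119 and Casr are the panels in which no knockout library reaches the lowest control; in the Avpr1b panel, control replicate 3 (598) lies among the knockout libraries (587 to 625).

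Amino acids and calcium are sensed by GPR142, a receptor for tryptophan in beta cells, and by CASR, the calcium-sensing receptor. Gpr142 (chromosome 11, 114798924 to 114806745, plus strand) was at 1983, 1896 and 1876 normalized counts in controls and at 1884, 1878 and 1873 in knockouts. It varied least of the 10 relative to its level, with an SD of 2.22% of the mean over all 6 libraries, no more than counting error alone gives at this level, and the 95% interval of its change ran from -12.4% to 9.45% (adjusted p = 0.960).

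Casr (chromosome 16, 36493696 to 36562141, minus strand) was at 15957, 13834 and 14395 normalized counts in controls and at 13412, 13572 and 10759 in knockouts. The groups did not overlap, but control replicate 2 and knockout replicate 2 lay close together, and knockout replicate 3 was the lowest. Per length the Casr groups did overlap, at 65.2 to 82.5 TPM in controls and 53.8 to 65.9 in knockouts. The log2 fold change of -0.23 ± 0.10 had an unadjusted p of 0.0286 and did not pass (DESeq2 adjusted p = 0.341); 11.5% of all genes tested had an unadjusted p under 0.05. A small RNA gene, Gm25902, lies within Casr on the same strand but shares no exon with it.

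AVPR1B is the vasopressin receptor of alpha cells, where its activation promotes glucagon release. Avpr1b (chromosome 1, 131599239 to 131612000, plus strand) had 918, 1053 and 598 normalized counts in the controls and 587, 625 and 621 in the knockouts. Control replicates 1 and 2 were high, and control replicate 3 fell within the narrow knockout range. The log2 fold change was -0.49 ± 0.19 (SE, DESeq2 adjusted p = 0.188), with a 95% interval from -44.8% to -7.84%, and it did not pass. Without control replicate 3 it was -0.69 with an adjusted p of 5.76e-06, in a fit that called 6.28% of all genes. Over all 13 alternatives the adjusted p ran from 5.76e-06 to 0.749. Gcg fell, with a log2 fold change of -0.56 (DESeq2 adjusted p = 0.00332; 0.144 without knockout replicate 1 and 0.0826 without knockout replicate 3), and control replicate 3 also had the lowest Gcg count of the controls; the part of the alpha-cell RNA share in the Avpr1b values was not tested.

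The catecholamines adrenaline and noradrenaline act on islets mainly through ADRA2A, which suppresses insulin secretion, and through stimulatory receptors such as ADRB1. Adra2a (chromosome 19, 54044151 to 54048982, plus strand) was at 18248, 18339 and 16173 normalized counts in controls and at 17568, 18992 and 15516 in knockouts. The ranges lay over each other, and the log2 fold change of -0.02 ± 0.09 (adjusted p = 0.981) had a 95% interval from -13.1% to 12.1%. Adrb1 (chromosome 19, 56722199 to 56733113, plus strand) was at 125, 152 and 127 normalized counts in controls and at 162, 122 and 73.8 in knockouts. It had both its highest and its lowest value in knockout libraries, and its log2 fold change was -0.17 ± 0.32 (adjusted p = 0.934). Its lowest raw count was 74, with an exact 95% Poisson interval from 58.1 to 92.9 that covers counting error only, so the spread between knockout libraries exceeded counting error. The interval of its change, from -42.4% to 36.5%, was the widest of the 10.

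Of the summed TPM of the 8 adrenergic receptor genes analysed here, Adra2a held 97.5% ± 0.161 in control and 97.3% ± 0.425 in knockout libraries (SD, n = 3 per group; exact two-sided permutation p = 0.7, 0.7 adjusted over the 3 shares). Of the 6 besides Adra2a and Adrb1, 4 were given an adjusted p and 0 passed. Adra1a was at 76.8 ± 13.4 and 103 ± 32.6 normalized counts and Adra2b at 39.8 ± 10.3 and 57.5 ± 10.1, and Adrb3 had 0 counts in every library.

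**Figure D3:**
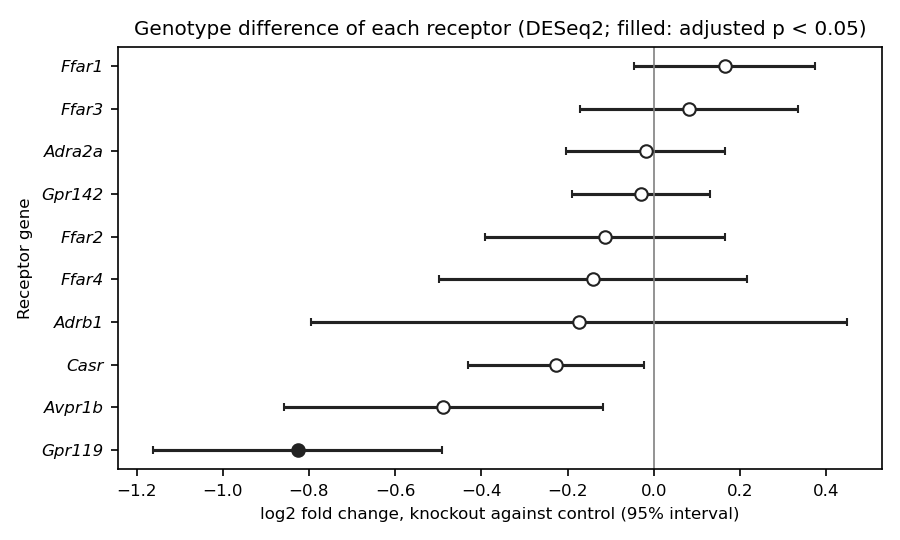
Log2 fold change of each receptor, knockout against control, with its 95% interval from DESeq2; the filled point passed an adjusted p of 0.05. Gpr119 (-0.83) is the only filled point, the intervals of Avpr1b and Casr also lie below 0 before adjustment, and Adrb1 has the widest interval.

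Genes that work with these receptors were then examined in 7 lists. Among the related receptors, Oxtr, the oxytocin receptor, fell. It was at 4031, 3924 and 3806 normalized counts in controls and at 3107, 3114 and 2664 in knockouts, without overlap, a log2 fold change of -0.40 ± 0.09 (DESeq2 adjusted p = 0.00128; 0.139 in edgeR). Oxtr was 1 of 2 tested genes in the list of 3 vasopressin and oxytocin receptors. Avpr1a (log2 fold change 0.36, adjusted p = 0.778) did not pass, and Avpr2 had 0 counts in every library. Of 15 other receptors for lipids, amino acids, sugars, bile acids and metabolites, 9 were tested and 0 passed, with a median log2 fold change of -0.03. The most abundant of these was Lpar1, a lysophosphatidic acid receptor, at 1278 ± 199 and 1242 ± 123 normalized counts, followed by Olfr558 at 641 ± 31.3 and 626 ± 6.65.

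The transducing machinery did not pass either. Of the 13 G protein alpha subunits 0 passed, with a median of -0.02. Those with the most normalized counts, not set per length, were Gnas, the Gs subunit used by GPR119 and ADRB1 (log2 fold change -0.08 ± 0.08), and Gnao1 (0.03 ± 0.06). The same held for the 12 phospholipase C, IP3 receptor and protein kinase genes (median 0.05), of which Itpr1 (-0.13 ± 0.12) and Itpr3 (0.03 ± 0.06) had the most normalized counts. Of the 13 receptor kinases, arrestins and RGS proteins, which end receptor signalling, 0 passed (median 0.02). Rgs2, with the most normalized counts of them, ran from 17401 to 38994 normalized counts in controls and from 27599 to 58377 in knockouts, and Rgs5, also a pericyte marker, had a log2 fold change of -0.07 ± 0.10.

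Of the 14 genes that make or break down the ligands, 11 were tested and 1 passed. Maob, an X-linked monoamine oxidase that breaks down amines, fell from a mean of 21833 ± 303 normalized counts to one of 17749 ± 990 (SD, n = 3 per group), with a log2 fold change of -0.30 ± 0.07 (DESeq2 adjusted p = 0.00222; 0.186 in edgeR). Its knockout libraries all lay below the controls. The list's median was -0.17, with 7 of 11 below 0. The genes for the peptide ligands, Avp and Oxt, and Pnmt, which makes adrenaline, had 0 counts in every library; a count of 0 allows up to 3 counts, or 0.0296 CPM (counts per 1000000) in the smallest library. Napepld, which makes the GPR119 ligand, and Faah, which degrades it, did not pass (log2 fold changes -0.17 and 0.04).

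**Figure D4:**
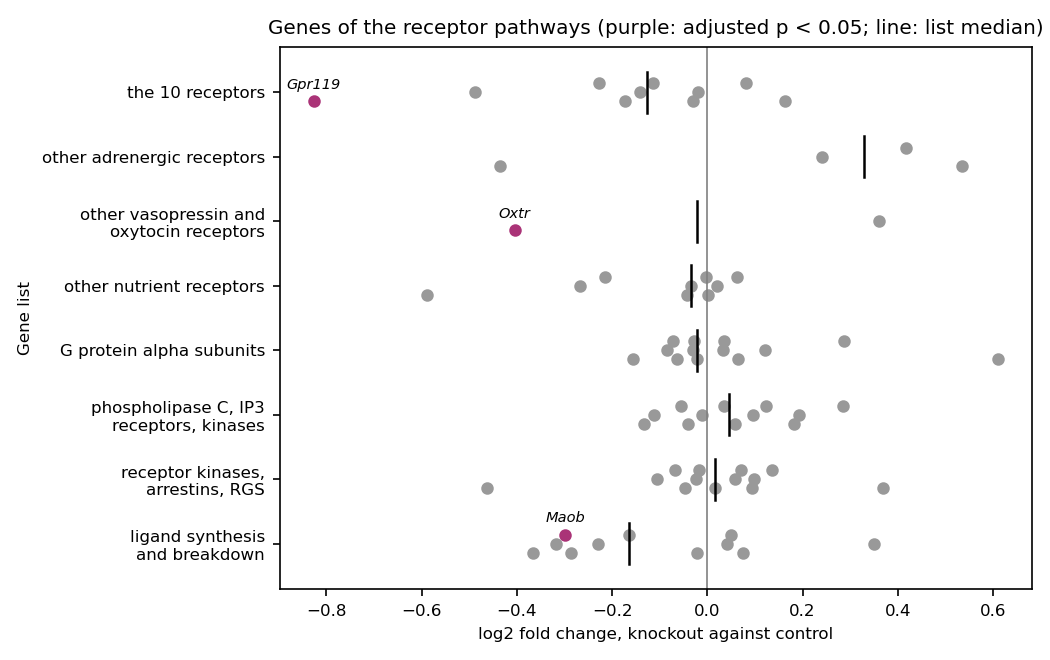
Log2 fold change, knockout against control, of every tested gene in the receptor list and the 7 related lists, with 1 point per gene and the list median as a black line. Gpr119, Oxtr and Maob, in purple, are the genes past an adjusted p of 0.05, and all 3 lie below 0.

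The called difference and the nearest uncalled ones were followed through left-out libraries. The log2 fold change of Gpr119 lay between -0.95 and -0.57 and passed in each of the 6 fits. That of Avpr1b lay between -0.69 and -0.31 and passed in the fit without control replicate 3. Casr lay between -0.28 and -0.13 and passed in 0 of them. The same library, control replicate 3, thus had the highest Gpr119 and the lowest Avpr1b value of the controls, and its removal lowered the size of the Gpr119 change and raised that of Avpr1b.

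**Figure D5:**
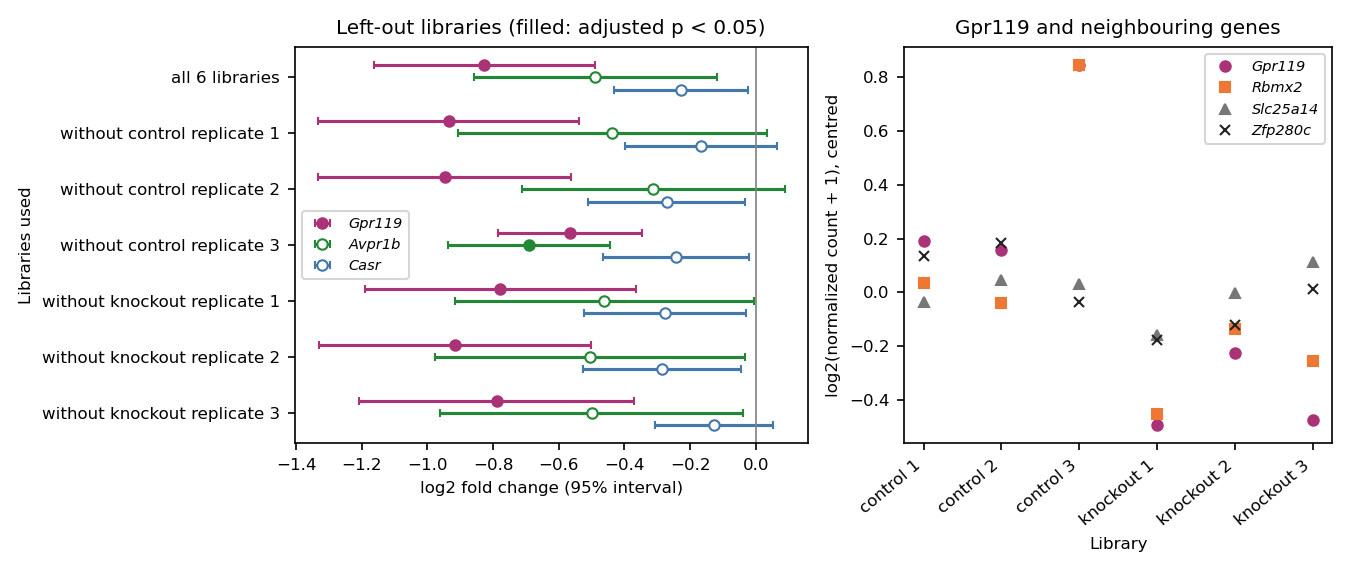
Left, log2 fold change with 95% interval of Gpr119, Avpr1b and Casr with all 6 libraries and with each library left out (filled: adjusted p under 0.05); right, log2(normalized count + 1), centred on each gene's mean, of Gpr119 and 3 genes near it on the X chromosome in each library. Gpr119 is filled in every row, Avpr1b only without control replicate 3, and on the right Rbmx2 lies near Gpr119 in each library while Slc25a14 and Zfp280c do not share the high value in control replicate 3.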

How the data were processed

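The authors deposited 1 table of read counts per gene, without normalization, for 6 islet libraries. The submitters' processing notes name FastQC, STAR, featureCounts and DESeq2 and the build mm10; the strand setting is not given in the sources used here. All 55536 identifiers and symbols matched GENCODE M21 (GRCm38), which gave positions and exon lengths; 0 columns were unused. DESeq2 with no batch term is the study's stated design, so DESeq2 1.42.0 (R 4.3.3) was the main test: genotype as the only term, median-of-ratios size factors, genes with at least 10 counts in total, Wald test, Benjamini-Hochberg adjustment over all genes. It was tested on simulated data. TPM used the union of exons. The depth was at least 101277200 counts a library. Counting error was below the spread between libraries for most receptors, but close to or above it for Gpr142, the Avpr1b knockouts and the Ffar3 and Adrb1 controls. Within-group pairs of libraries differed by far more than sampling noise (chi-square at least 40.0 times its degrees of freedom). Alternatives were edgeR 4.0.16, TMM factors, other filters, an adjusted p of 0.1, a block for the replicate number, fits without single libraries, and transcript length.

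The 10 receptors and all lists were chosen with earlier results of these data known. Named are all 10 receptors, list genes past the threshold or else the 2 of a pathway list with the highest mean normalized count, Klf4 and the sex-linked transcripts, and the 3 profiles closest to a called receptor. Named beyond that rule, after values were seen, are the genes around Gpr119, Gm25902 within Casr, Avpr1a, Napepld, Faah, Mafa, Slc2a2, Ins1, Ins2, Iapp, Acta2, Cd79a, Ptprc, Cftr, Sox9, the neutrophil and adipocyte markers other than Fabp4, and genes at 0 counts. 1 gene of the lists is not reported here and is left out of their counts and shares.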

Additional observations from a re-analysis of the deposited data

How the results depend on the processing

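Gpr119 was the only receptor called in 12 of the 14 alternatives; the edgeR quasi-likelihood test called 0 receptors, and the fits that left out 1 library called 1 to 2, the second being Avpr1b without control replicate 3. The number of all genes past the threshold, 389, was 29 in edgeR and 614 at an adjusted p of 0.1, and ran from 153 (without knockout replicate 1) to 952 (without control replicate 3) when libraries were left out. A DESeq2 fit with a replicate block called 405 genes and the same single receptor, Gpr119, at -0.79; same-numbered libraries did not deviate together (correlations of deviations -0.048, -0.059 and 0.010 over 15811 genes). Changes of sign occurred only in fits that left out a library, and none of these values was past the threshold: Ffar2 ran from -0.23 to 0.078, Ffar3 from -0.0014 to 0.21, Ffar4 from -0.34 to 0.058, Adra2a from -0.087 to 0.055, Adrb1 from -0.46 to 0.078, Lpar1 from -0.12 to 0.092, Rgs2 from -0.070 to 0.61 and Rgs5 from -0.16 to 0.0090. The cause was not tested. Over the 39 genes that the rule names other than the sex-linked transcripts, 447 of 507 gene results under the alternatives stayed as they were in direction and call, 46 lost the call, 3 gained one and 11 changed sign. With the longest transcript as length, Ffar2 moved above Gpr119 and Ffar3 above Ffar4 in controls; the other places were kept.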

Other observations

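Around Gpr119, the other genes within 200 kb that had a mean of at least 50 normalized counts were Aifm1, Zfp280c, Slc25a14 and Rbmx2. Slc25a14, a mitochondrial carrier gene and the nearest, with 5.68 kb between them, was at 1237, 1310 and 1296 normalized counts in controls and at 1135, 1265 and 1371 in knockouts, and its log2 fold change was -0.03 ± 0.11 (DESeq2 adjusted p = 0.975). Aifm1, which encodes a mitochondrial flavoprotein, was at -0.02 (adjusted p = 0.973) and the zinc-finger gene Zfp280c at -0.19 (adjusted p = 0.529). The root mean square difference from the Gpr119 profile was 0.43 to 0.45 for these 3 genes and 0.14 for Rbmx2, an RNA-binding protein gene. In the fit without control replicate 3, Rbmx2 was at -0.27 (adjusted p = 0.246) and Gpr119 at -0.57 (adjusted p = 4.56e-05).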
